A study of Rattus norvegicus with 19 samples.

Results

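The strain comparison in male rats set 5 libraries from SHR males against 4 from Wistar males, which are 9 of the 19 libraries of the series. The libraries were chosen by their labelled strain and sex. Each came from RNA of the paraventricular nucleus (PVN) of the hypothalamus of a separate rat. Genes were kept where their mean over these 9 libraries was above 5 counts after TMM normalization, a scaling that sets most genes level between libraries, and 17463 of the 30560 listed genes passed. The other 10 libraries, from 5 SHR and 5 Wistar females, shared no animal with this comparison and served as a second reading of the same strain difference.

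The PVN holds neurons that release vasopressin and oxytocin from the pituitary, neurons that drive the stress axis, and neurons that project to the brainstem and spinal cord and set sympathetic outflow to the heart and vessels. The spontaneously hypertensive rat (SHR) is an inbred strain that develops high blood pressure without any treatment. The Wistar rat is an outbred, normotensive stock, so Wistar animals can carry different alleles of a gene, whereas SHR animals are close to genetically identical. SHR and Wistar rats differ across the genome, and a difference between them need not be related to blood pressure.

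All groups had the same surgery and care around it. According to the paper, females were recorded in dioestrus, which was followed by vaginal smears each day. A telemetry probe was implanted in the abdominal aorta, recovery lasted 2 weeks, and the rats were 14 weeks old at the recording of blood pressure. Punches of 1 mm were taken on both sides of the PVN from frozen sections, and RNA with an integrity number above 8 was made into strand-specific libraries of polyadenylated RNA. The Wistar male libraries carry the numbers 2 to 5 and the SHR male libraries the numbers 1 to 5. Total counts lay between 49603020 and 58793511 in SHR males and between 50804166 and 52563411 in Wistar males, and the strains did not differ in them beyond their spread (two-sided exact permutation test, p = 0.952). Among counts from 1 to 100 in a male library, between 73.8% and 75.6% were even, which would occur if both reads of a pair were counted. Whether they were is not given in the sources used here.

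The table gives each gene as an Ensembl identifier, and no symbol is paired with it in the files. Identifiers are therefore given for 2 genes higher and 2 genes lower in SHR, and for 1 gene that the study itself names with its identifier. Functions, pathways, chromosomes, cell type markers and promoter sequences could not be assigned to the other genes, and the punches were not checked against markers of the PVN. In a punch, fewer cells of a type and less RNA per cell cannot be told apart.

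The one gene known by name, ENSRNOG00000057231, is Ddx3y, which encodes an RNA helicase on the Y chromosome and is made in male tissue. It had 6038, 6677, 6221, 5912 and 6046 normalized counts in the SHR males. In Wistar males 2 to 5 it had 5965, 5785, 6155 and 5642. The strains overlapped, and the fitted difference was 0.06 on the log2 scale (standard error 0.05). It did not pass the quasi-likelihood test of edgeR (Benjamini-Hochberg adjusted p = 0.440). The 10 female libraries had between 0 and 12 raw counts of it, so the male libraries matched their labelled sex.

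Between SHR and Wistar males, 2102 genes differed at an adjusted p under 0.05, which is 12% of the genes tested. In SHR, 898 were higher (5.14% of the genes tested) and 1204 were lower (6.89%). Over all genes tested the median log2 fold change was -0.0036 (quartiles -0.20 and 0.12). TMM scaling sets most genes level between libraries, so this median says nothing of a change in total RNA. Genes called higher held between 6.74% and 7.30% of the counts of an SHR male library and between 5.54% and 5.80% of a Wistar male library. Genes called lower held between 2.61% and 2.84% in SHR males and between 3.63% and 4.12% in Wistar males. The more numerous group of lower genes thus held the smaller share of the RNA. These shares describe genes chosen by this contrast and carry no test.

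The number of calls rested on the libraries entered. It was 1203 without SHR male 3, 1377 without SHR male 1 and 1397 without Wistar male 3. Of the 2102 genes, 996 (47.4%) passed the threshold in each of the 9 fits that left out 1 library, and in none of these fits did a called gene change sign. This share was 17.1% for changes under 1.2-fold and 64.9% for changes above 4-fold.

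The direction of the strain effect depended on how strongly a gene was expressed. Among 3022 genes with a mean of 5 to 50 normalized counts, 39 were higher and 165 lower in SHR males, so that 19.1% of the called genes were higher. Among 3879 genes with means of 50 to 500, 159 were higher and 409 lower (28.0% higher). Among 8258 genes with means of 500 to 5000, the directions were close to even, with 547 higher and 583 lower (48.4% higher). Among the 2304 genes above 5000, the balance was the other way, with 153 higher and 47 lower (76.5% higher). The share of genes called in either direction was 6.75%, 14.6%, 13.7% and 8.68% in these classes, against 12% over all genes.

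**Figure D1:**
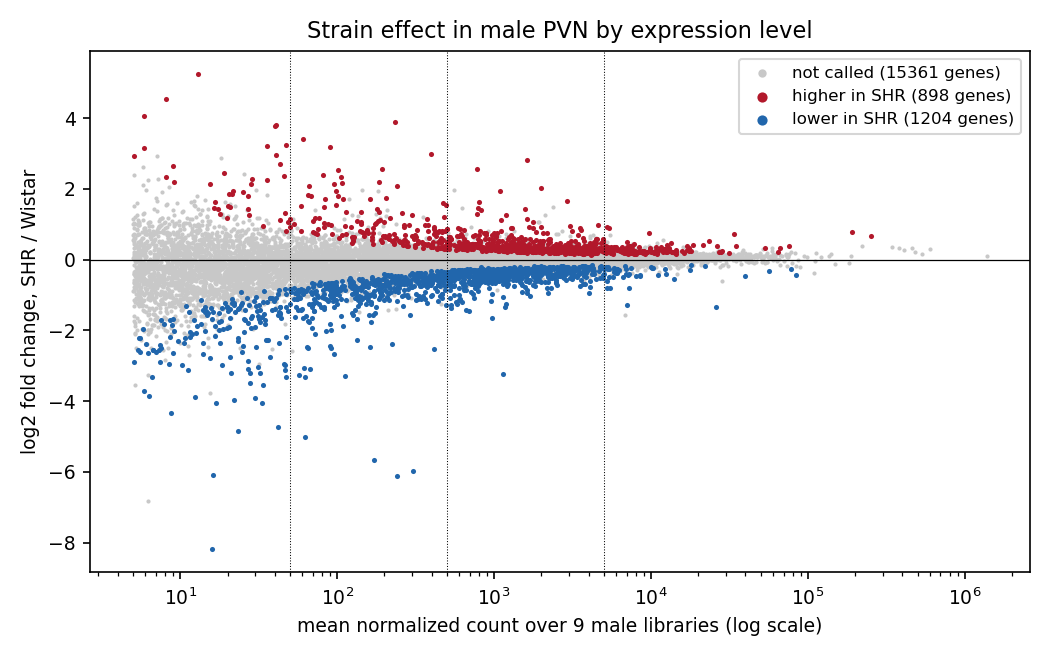
Each point is 1 of 17463 genes, with its mean normalized count over the 9 male libraries on a log scale (x) against its log2 fold change of SHR over Wistar males (y). Coloured points are the 898 genes called higher and the 1204 called lower in SHR, and dotted lines mark means of 50, 500 and 5000. Below 500 counts the lower genes outnumber the higher ones, and above 5000 the higher ones are more numerous.

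The same gradient was present when all genes of a class were taken, called or not. The median log2 fold change rose from -0.26 in the lowest class to -0.09, 0.01 and 0.06 in the next classes. In the lowest class 65.6% of the genes tested had a negative log2 fold change, and in the highest class 28.0%. The female medians did not show this gradient in those genes of the same classes that were also tested in females. These were 2810 of the 3022 genes in the lowest class. The female median log2 fold changes were -0.06, 0.01, 0.01 and -0.02, from the lowest class to the highest. In the same order, 22, 60, 67 and 6 genes were called higher in SHR females and 41, 85, 95 and 22 lower. Over all classes 155 were higher and 243 lower, so lower genes were more numerous in every class. A difference between the sexes in these medians or calls was not tested. Classes by female expression level were not examined.

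**Figure D2:**
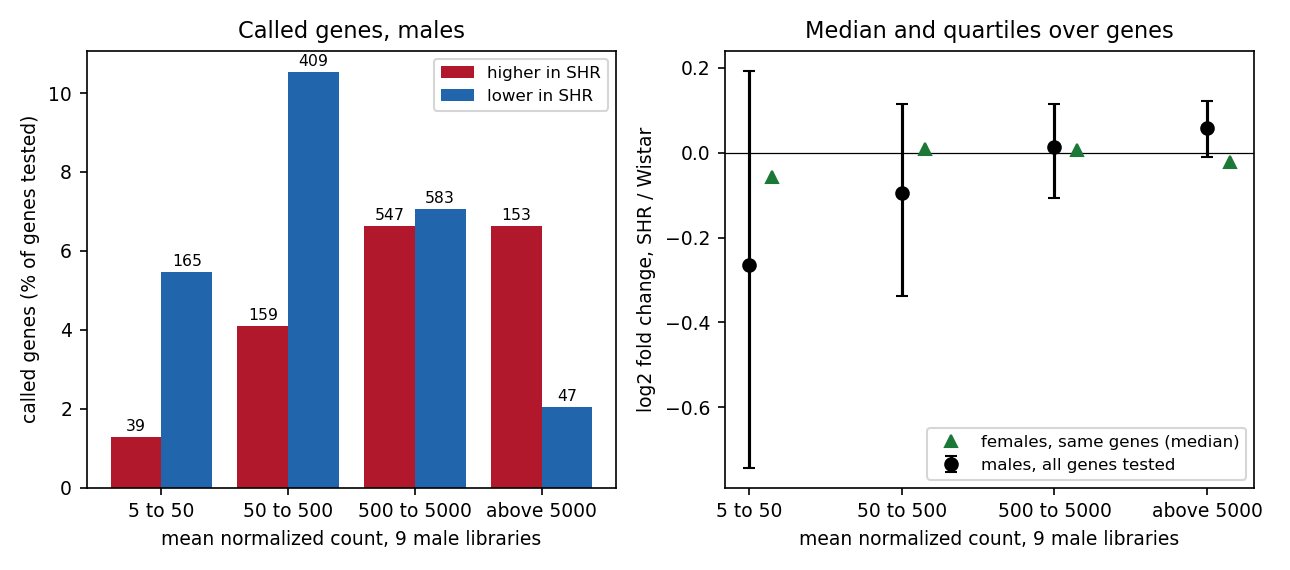
Left, bars give the share of tested genes (%) called higher and lower in SHR males in 4 classes of mean normalized count, with the number of genes above each bar. Right, points are the median log2 fold change over all genes of a class in males, and bars span the quartiles over genes. Triangles are the female medians over those genes of the same class that were tested in females. Male medians run from -0.26 to 0.06, and female medians stay between -0.06 and 0.01.

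The pattern was also laid out library by library, in the same genes and the same male libraries in which it was seen. The p-values of this paragraph therefore describe how these libraries lay and are not separate support for the pattern. Genes of the lowest class took 0.103%, 0.0978%, 0.0955%, 0.107% and 0.110% of all counts in SHR males 1 to 5. They took 0.114%, 0.130%, 0.122% and 0.154% in Wistar males 2 to 5. Every Wistar male was above every SHR male, and Wistar male 5 was the highest. The mean share was 0.103% ± 0.00604 (SD, n = 5) in SHR and 0.130% ± 0.0174 (SD, n = 4) in Wistar, a ratio of 0.788 (two-sided exact permutation test, p = 0.0159, the smallest that 5 against 4 libraries can give, and 0.0397 after Benjamini-Hochberg adjustment over 5 library measures). Without Wistar male 5 the difference was -0.0195 percentage points (exact permutation p = 0.0357, the smallest that 5 against 3 libraries can give) in place of -0.0275.

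The number of genes seen at all moved with it. At least 1 count was present for 18959, 19088, 18814, 19071 and 19020 genes in SHR males 1 to 5. In Wistar males 2 to 5 the numbers were 19200, 19295, 19214 and 19534, again all above the SHR males. The means were 18990 ± 111 (SD, n = 5) and 19311 ± 155 (SD, n = 4), with an exact permutation p = 0.0159 (adjusted 0.0397). The share of counts in genes with means above 5000 was 67.2% ± 0.679 (SD, n = 5) in SHR and 66.0% ± 1.46 (SD, n = 4) in Wistar males, a difference within the spread between libraries (exact permutation p = 0.143, adjusted 0.179). The share of the 10 most abundant genes of each library was 10.4% ± 0.859 (SD, n = 5) and 9.09% ± 1.28 (SD, n = 4), also within the spread (exact permutation p = 0.143, adjusted 0.179).

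In females the strains overlapped in both measures. With the lowest class defined over all 19 libraries, SHR females had a share of 0.115% ± 0.00954 (SD, n = 5) and Wistar females of 0.119% ± 0.0156 (SD, n = 5; two-sided exact permutation p = 0.667). By the same definition SHR males had 0.103% ± 0.00600 (SD, n = 5) and Wistar males 0.129% ± 0.0177 (SD, n = 4). SHR females had 19081 ± 212 genes with a count (SD, n = 5) and Wistar females 19088 ± 204 (SD, n = 5; exact permutation p = 0.968). The difference between the male and the female strain effect was itself tested by exchanging sex labels within strain, in all 31752 ways. It was -0.0222 percentage points for the share (permutation p = 0.0779) and -314 for the number of genes (permutation p = 0.0718). A difference between the sexes was thus not shown for either. These p-values are exact only if sex had no effect within either strain, which was not tested for these measures.

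**Figure D3:**
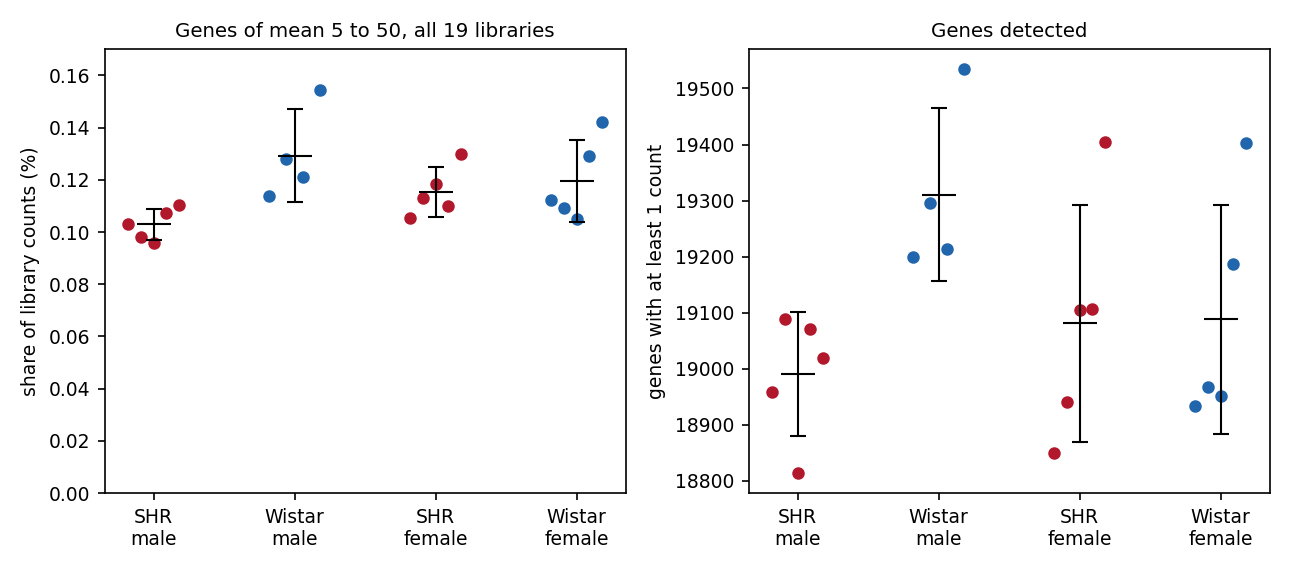
Points are single libraries, horizontal ticks are group means and bars are ± 1 SD, for SHR and Wistar males and females. Left is the share of a library's counts (%) in genes with a mean of 5 to 50 over all 19 libraries, and right is the number of genes with at least 1 count, on an axis that does not start at 0. All 4 Wistar males are above all 5 SHR males in both panels, and the female groups overlap.

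Wistar male 5 stood at the edge of its group in each of these measures, so the classes were also counted without it. The lowest class then had 34 genes higher and 121 lower, and its median log2 fold change was -0.19. The highest class had 98 higher and 58 lower, with a median of 0.04. The gradient thus kept its direction without this library, and the excess of higher genes among the most abundant ones was smaller. What part of the class differences comes from the makeup of the punches, from the libraries or from the strains was not tested.

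Most of the called changes were small. Of the 2102 genes, 334 (15.9%) differed by under 1.2-fold and 949 (45.1%) by 1.2 to 1.5-fold, while 131 (6.23%) differed by over 4-fold. Direction changed with size. Genes higher in SHR were the majority under 1.2-fold, with 246 higher and 88 lower. Genes lower in SHR made up 54% of the called genes from 1.2 to 1.5-fold, 71.9% from 1.5 to 2-fold, 77.2% from 2 to 4-fold and 72.5% above 4-fold.

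Size and expression level went together, and so did precision. The median standard error of the log2 fold change was 0.45 for genes with means of 5 to 50, 0.17 from 50 to 500, 0.08 from 500 to 5000 and 0.06 above 5000. The smallest change called was accordingly 1.75-fold in the lowest class and 1.11-fold in the highest. The median fold of called genes fell from 3.71 in the lowest class to 1.73 and 1.28 in the next classes, and was lowest above 5000 counts. The genes called under 1.2-fold had a median of 3592 normalized counts, and those above 4-fold had a median of 28.0.

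Of the 131 genes that differed by over 4-fold, 36 were higher and 95 lower in SHR males. Their level reached a mean of at least 100 normalized counts in the higher strain for 15 of the 36 and for 22 of the 95, so the excess of lower genes was smaller among well-expressed genes. Of the 36 higher genes 20 were in the class of 5 to 50 counts, and of the 95 lower genes 73, so the spreads between animals given next come from genes of unlike level. Among the 95 lower genes, 30 (31.6%) had a spread of over 4-fold between the highest and the lowest Wistar male, the strain in which they were higher. Among the 36 higher genes, 1 (2.78%) had such a spread between SHR males. The median spread was 2.79-fold in the former and 1.62-fold in the latter. These are counts over genes selected by the contrast and over 4 and 5 animals, and carry no test.

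ENSRNOG00000046493 had the smallest adjusted p of the genes higher in SHR. Its normalized counts were 7017, 6580, 6822, 6446 and 6543 in SHR males 1 to 5. In Wistar males 2 to 5 they were 3452, 3433, 3592 and 3503. The lowest SHR male was 1.79-fold above the highest Wistar male, and the libraries of each strain lay close together. The fitted log2 difference was 0.93 with a standard error of 0.05 (adjusted p = 6.67e-07), from 6682 ± 233 (SD, n = 5) against 3495 ± 71.0 (SD, n = 4). In females it was 0.82 with a standard error of 0.07 (adjusted p = 9.24e-05).

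ENSRNOG00000016164 had the largest fold of the higher genes with a mean of at least 100 counts in SHR. It had 511, 269, 405, 392 and 428 normalized counts in SHR males 1 to 5. Wistar males 2 to 5 had 17.8, 52.0, 26.3 and 11.03. The gene was present at a low level in every Wistar male, and the closest animals of the strains were 5.18-fold apart. This amounted to 3.90 on the log2 scale with a standard error of 0.34 (adjusted p = 4.53e-05), or 14.9-fold. It was 4.07 in females (standard error 0.20, adjusted p = 5.93e-07).

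ENSRNOG00000026646 had the smallest adjusted p of the genes lower in SHR. SHR males 1 to 5 had 417, 489, 533, 518 and 519 normalized counts. Wistar males 2 to 5 had 1553, 1518, 1546 and 1592. The Wistar males were within a narrow range, and the lowest of them was 2.85-fold above the highest SHR male. The strain effect was -1.66 on the log2 scale (standard error 0.08, adjusted p = 5.40e-07) in males and -1.77 (standard error 0.10, adjusted p = 1.53e-06) in females.

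ENSRNOG00000032708 had the largest fold of the lower genes with a mean of at least 100 counts in Wistar, and its Wistar males fell far apart. SHR males 1 to 5 had 2.12, 9.35, 8.52, 9.95 and 7.28 normalized counts. Wistar males 2 and 3 had 957 and 1130, whereas Wistar males 4 and 5 had 15.1 and 18.4. The lowest of these was 1.52-fold above the highest SHR male. The fitted value of -6.13 on the log2 scale has a standard error of 1.21 (adjusted p = 0.00831) and averages over 2 animals with high and 2 with low counts. Without Wistar male 3 it was -5.44. Wistar females were as uneven, with 871, 952, 10.8, 198 and 35.9 normalized counts, while SHR females had between 4.04 and 8.65. The female value was -6.00 on the log2 scale, with a standard error of 1.15 (adjusted p = 0.0192).

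**Figure D4:**
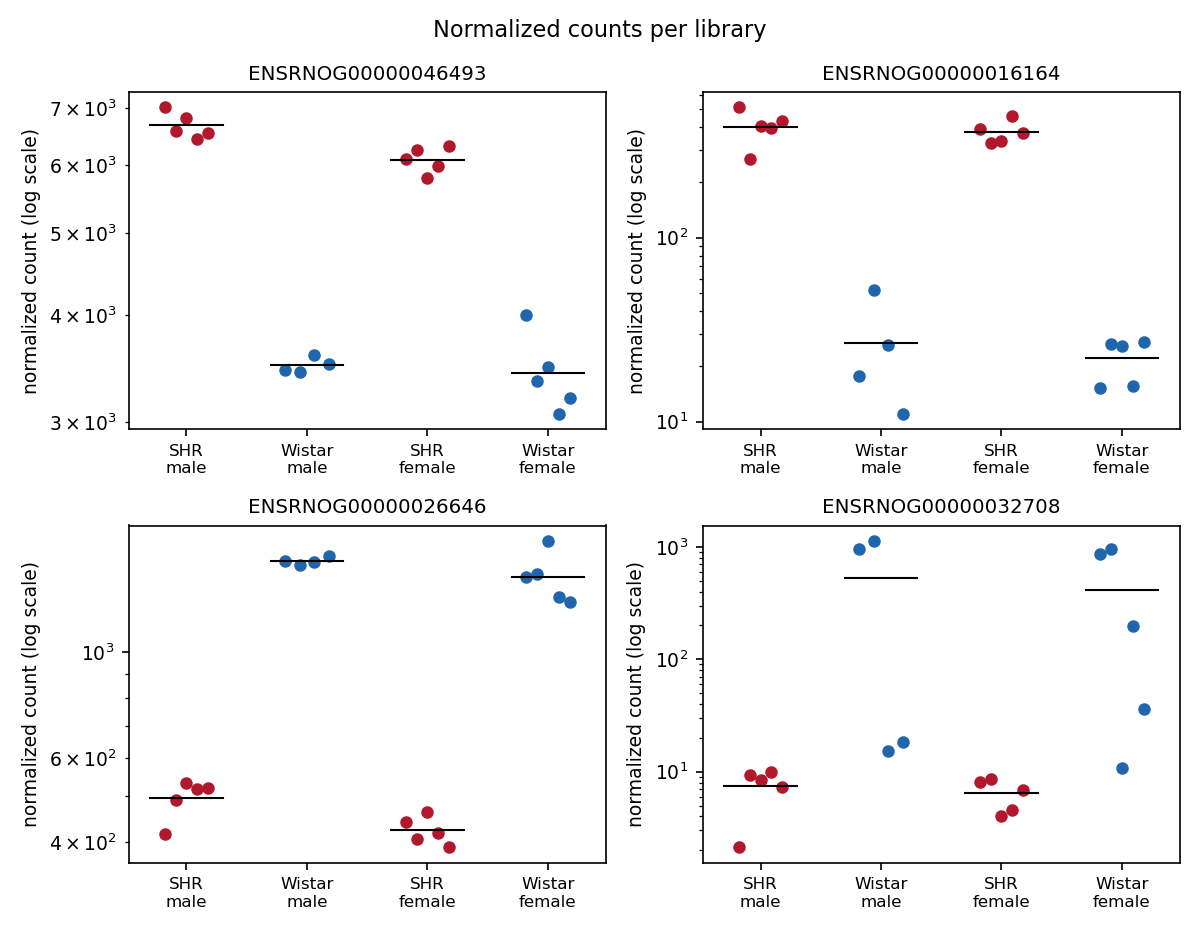
Each point is the normalized count of a gene in 1 library, on a log axis, and lines are group means, for 2 genes higher (top) and 2 genes lower (bottom) in SHR. The strains do not overlap in males for any of the 4 genes. For ENSRNOG00000016164 the Wistar males run from 11.03 to 52.0 counts. For ENSRNOG00000032708 the Wistar animals of both sexes run from about the SHR level to 1130 counts.

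The libraries of the strains did not overlap in 1297 genes that were higher in SHR males (7.43% of the genes tested) and in 1276 genes that were lower (7.31%). Of the 2102 called genes, 1761 (83.8%) were among these, and 341 were called although 1 or more libraries overlapped. Gaps were mostly narrow. The closest libraries of the strains were over 2-fold apart for 29 higher and 43 lower genes, and over 4-fold apart for 7 higher and 16 lower genes. All of these were called.

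The female libraries gave an independent reading of these separations. Of the genes tested in females, 2.19% were higher and 3.1% lower in SHR without overlap between the strains there, 5.3% in either direction. Most of the male separations were not found there. Of the 1297 higher genes, 160 (12.3%) were separated the same way in females, and of the 1276 lower genes, 214 (16.8%). The opposite way was seen for 2 of the lower genes and for 0 of the higher genes. Wider gaps recurred more often. Of the 29 higher genes with a gap of over 2-fold in males, 23 (79.3%) did not overlap in females either and had the same direction. Of the 43 lower genes, 25 (58.1%) did so. With a gap of over 4-fold these numbers were 7 of 7 and 10 of 16. None of the genes with a gap of over 2-fold was separated the opposite way in females.

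By a strict limit, few genes were close to absent in every library of one strain and above it in every library of the other. Those found were weakly expressed in the strain that had them. A gene was taken as close to absent when no library of the strain had more than 6 counts, the limit that a count of 0 allows if both reads of a pair were counted (3 counts otherwise), for counting error only. By this measure 23 genes were close to absent in every SHR male and above the limit in every Wistar male, and 4 genes had the reverse pattern. The 23 and 4 genes were counted over all 30560 listed genes, not only those that entered the test. Of them 18 and 3 were called, which their separation favours, against 12% of all genes tested. The highest mean was 50.6 normalized counts in the Wistar males for the former and 22.9 in the SHR males for the latter. Genes present in only some animals of the higher strain are not covered by this. Genes just above the limit are not covered either. ENSRNOG00000032708 had a mean of 7.45 normalized counts in SHR males against 530 in Wistar males. One of the 23 had 0 counts in every SHR male, and no fold is given for it. In females 3 of the 23 and 1 of the 4 met the same criterion.

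Whether the male differences recurred in other animals was examined in the 10 female libraries, fitted alone. There 400 of 17406 genes (2.3%) passed the threshold. Of the 2102 male genes, 2094 were tested in females and 1683 (80.4%) had the same sign, against 58.0% of all 17246 genes tested in both sexes and 54.9% of the 15152 that were not called in males. In females 256 of them (12.2%) also passed the threshold, each with the sign it had in males. This number was 153 without SHR female 1, 160 without SHR female 2 and 136 without SHR female 4. It was 573 with DESeq2 in both sexes.

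Recurrence was highest for the largest male differences. The same sign was found in 80.8% of the genes that differed by under 1.2-fold in males, 78% from 1.2 to 1.5-fold, 77.4% from 1.5 to 2-fold, 85.2% from 2 to 4-fold and 96.8% above 4-fold. The share that passed the threshold in females rose from 1.8% to 7.06%, 15.9%, 21.8% and 46.8%. The female log2 fold change, taken along the male sign, had a median of 2.06 for the genes above 4-fold, where the male median was 2.61. For the genes under 1.2-fold it was 0.07, where the male median was 0.22. Since the genes were chosen on the male values, male differences are the larger ones in part by that choice, and the ratio of these medians does not compare the sexes.

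**Figure D5:**
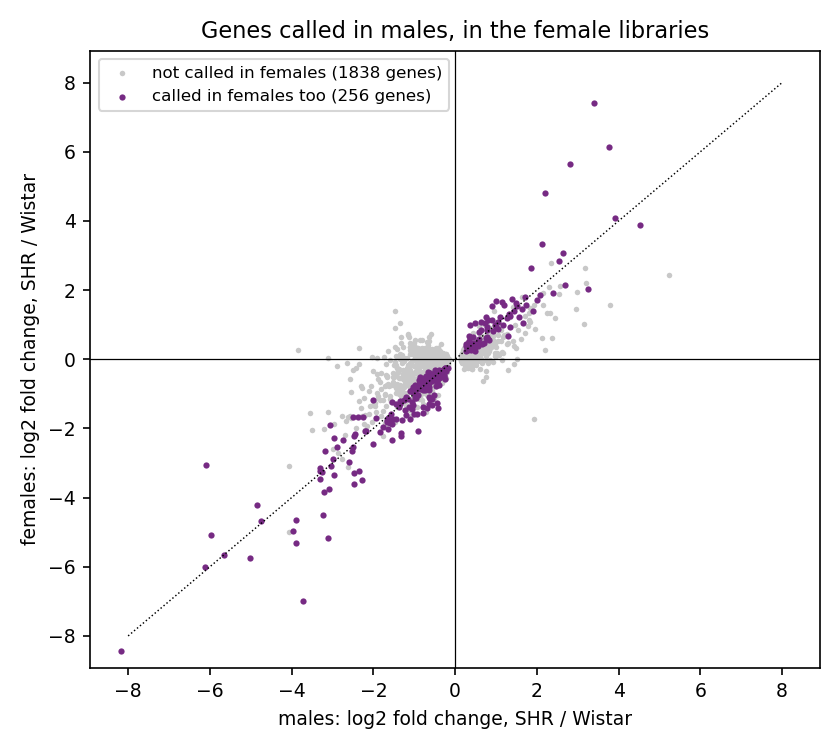
Each point is 1 of the 2094 genes called in males and tested in females, with the log2 fold change of SHR over Wistar in males (x) and in females (y), and the dotted line marks equal values. The 256 purple points passed the threshold in females too. All of these lie in the quadrants of equal sign, as do 80.4% of all points.

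A difference of the strain effect between the sexes was tested as an interaction in a fit of all 19 libraries. With edgeR's quasi-likelihood test 0 of 17433 genes passed the adjusted threshold (0%), and the smallest adjusted p was 0.144. An unadjusted p under 0.05 in this test was found for 2333 genes (13.4%). The absence of calls does not show that the strain effect was the same in both sexes. DESeq2 called 48 genes, and edgeR called 32 with the replicate number as a block. The spread between animals was larger in females, with a common biological coefficient of variation (the relative spread beyond counting error) of 0.179 against 0.127 in males.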

How the data were processed

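The data are poly(A) RNA-seq libraries of PVN punches. According to the study's methods, the authors trimmed reads with Trimmomatic, aligned them to Rn7 with STAR and assigned them to genes with featureCounts. Versions and the annotation are not given in the sources used here. The values the authors deposited are raw counts per gene, with no normalization or filter. Library totals of the 9 males lay between 49603020 and 58793511, and count limits cover counting error only.

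The counts of 5 SHR and 4 Wistar males were tested with edgeR 4.0.16 in R 4.3.3 (quasi-likelihood test, TMM factors computed after the filter, Benjamini-Hochberg threshold 0.05). Genes entered a test if they averaged more than 5 normalized counts in the libraries of that test. Normalized counts are scaled to the geometric mean of the effective library sizes of the same sex. Females were fitted alone, and the interaction in all 19 libraries. Log2 fold changes are SHR over Wistar, and adjusted p-values of genes are from edgeR. Library measures were compared by two-sided exact permutation tests (scipy 1.17.1). The alternatives were DESeq2 1.42.0, other scalings and filters, Bonferroni adjustment, 1 fit of all groups, counts divided by 2, a replicate block and leaving out each library. The edgeR steps were tested on simulated data.

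The classes, the members and the lists were chosen with earlier results of these data known. The genes given are, in each direction, the called gene of smallest adjusted p with non-overlapping groups and the called gene of largest fold with a group mean of at least 100. Ddx3y was added because the study prints its identifier. Gene lists, cell type markers and promoter motifs that had been listed need symbols and were not run.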

Additional observations from a re-analysis of the deposited data

Results flagged for a closer look

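Groups of 4 or 5 male libraries were examined for a library far from the others in 5 library measures and 5 genes, 20 groups in all. Such a gap arises by chance in about 1 of 20 groups. Total counts of SHR male 2 were 58793511, while the other SHR males were between 49603020 and 51889020. In Wistar male 5, genes with means above 5000 held 63.8% of the counts, against 66.5% to 67.0% in the other Wistar males. Neither was given an explanation, and the strain calls without these libraries were 1521 and 1607.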

How the results depend on the processing

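The number of genes called in males stayed within 1.5 times 2102 with DESeq2 (2997), the other scalings and filters, counts divided by 2 (2153) and all groups in 1 fit (1466). Bonferroni adjustment left 87. Leaving out 1 library gave 1203 to 1883. TMM factors computed before the filter, an alternative added after seeing the data, gave 2154. The median log2 fold change of all genes lay between -0.00907 and 0.00614 over these fits. The labels do not say that a replicate number pairs animals. Deviations of same-numbered males correlated at 0.128, 0.0812, -0.0497 and 0.144 for numbers 2 to 5. Numbers 2, 3 and 5 were each the best match of the same number in the other strain and number 4 was not, which is a hint from the data and not the design. With the replicate block 1916 genes were called, 1582 of them among the 2102. Male genes also called in females numbered 573 with DESeq2, 235 with the block and 136 to 321 without 1 female library. The interaction gave 48 genes with DESeq2 and 32 with the block, and 0 under the other 4 alternatives. The cause of these shifts was not tested. The share of counts in low-count genes had the same direction with a class bound of 100, added after seeing the data (exact permutation p = 0.0159). Leaving out a library could not change that call, since the strains do not overlap with all 9 libraries, and the difference then lay between -0.0329 and -0.0195 percentage points. The log2 fold changes of the 4 genes kept their sign in all 18 alternatives. ENSRNOG00000032708 did not pass Bonferroni adjustment, and the other 3 genes passed in each. Gene lists and promoter motifs were not run, since identifiers are not paired with symbols.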
